A study of Mus musculus with 2 samples.

Results

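The nuclear oxidative phosphorylation genes were taken as every gene of the count table whose symbol starts with Nduf, Uqcr, Cox4, Cox5, Cox6, Cox7, Cox8 or Atp5. These were 88 of 19550 genes, and they held 3.61% of all UMIs (unique molecular identifiers, 1 for each RNA molecule captured). By their symbols, 37 are subunits of complex I, 8 of complex III, 17 of complex IV and 17 of complex V. Another 8 help to assemble complex I, and 1, Cox7a2l, is known as a factor of supercomplexes of complexes III and IV. Its function in these mice was not examined. Complex II, cytochrome c, Cyc1 and the subunits encoded by mitochondrial DNA lie outside these prefixes and were described beside them.

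Oxidative phosphorylation couples the oxidation of NADH and succinate to the synthesis of ATP at the inner mitochondrial membrane. Complexes I, III and IV pump protons out of the matrix as electrons pass to oxygen, and complex V, the ATP synthase, makes ATP as protons flow back. Most subunits are encoded in the nucleus, a few in mitochondrial DNA, and the tissue is known for a cell with an unusual need of ATP, the acid-secreting parietal cell of the stomach, whose gastric proton pump Atp4a/Atp4b is itself an ATPase.

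The cells came from C57BL/6 wild-type mice without any treatment: esophagus, gastroesophageal squamocolumnar junction (GE-SCJ) and stomach at embryonic days 15 (E15) and 19 (E19), from pups at day 2 and from adults at 8 weeks. The mice of a stage (6 at E15, 2 at E19, 2 pups and 3 adults) were pooled within each region, tagged with multiplexing oligos and sequenced in 1 library, so each region and stage was 1 sample, and adult stomach was not analysed here. The table held 7808 cells in 11 region and stage tags, with 143 to 1403 cells per tag and a median of 10424.5 UMIs per cell. Cells carried the deposited class labels, columnar and squamous epithelium, stromal, smooth muscle, a second stromal label, neural, immune and endothelial cells. Cells of the first stromal label are called fibroblasts here, a name the label itself does not give. A second deposited squamous label was joined to the squamous class. The 54 groups of a class, region and stage with at least 20 cells are described, 7490 cells in all. The authors annotated clusters by known markers, so marker sums describe the labels and cannot test them. The 5 squamous markers summed to 17565 CPM in squamous cells and at most 223 CPM in any other class. The 5 columnar markers summed to 11776 CPM in columnar cells and at most 1069 CPM elsewhere. The 5 smooth muscle markers summed to 36113 CPM in smooth muscle and at most 1875 CPM elsewhere. Genes listed for other cell types within smooth muscle, fibroblasts of the E19 stomach and the second squamous label are given below.

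A level is a share of the group's UMIs scaled to 1000000 (CPM), so that a gene can be lower because others are higher. With 1 pooled sample per group no difference between groups could be tested against the spread between mice, and every interval is an exact 95% interval that covers counting error only. A ratio was computed after adding 1 UMI to each sum, a gene entered a comparison with at least 100 UMIs over both groups, and a gene counted as higher or lower at a ratio of 2-fold or more. Fewer cells of a type and less RNA per cell cannot be told apart in a summed level.

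Of the members, 86 had at least 1000 UMIs, so the weak signals lay in a few genes. The 10 members with the most UMIs were Cox4i1, Cox7c, Cox8a, Cox6c, Ndufa4, Atp5e, Uqcrh, Atp5l, Uqcr10 and Cox6b1, from 168200 UMIs for Cox4i1 down to 88153 for Cox6b1. Of these 10, 6 belong to complex IV, the cytochrome c oxidase, counting Ndufa4, which was named for complex I and is now assigned to complex IV. Cox4i1, the common form of its regulatory subunit 4, ranged over the 54 groups from 693 CPM in adult esophageal fibroblasts through a median of 1206 CPM to 3177 CPM in stomach columnar cells of the pups. The muscle forms of subunits 8 and 6a were at the bottom, with 65 UMIs of Cox8b and 2 UMIs of Cox6a2 over all cells.

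The summed level of the members differed between the classes, with ranges that partly overlapped. It ran from 16432 CPM in squamous cells of the pup esophagus to 62017 CPM in columnar cells of the pup stomach, with a median of 26842 CPM. The lowest group joined both squamous labels, at 22110 CPM in the first and 8361 CPM in the second. Columnar groups lay between 32212 and 62017 CPM and smooth muscle groups between 26883 and 58009 CPM. Fibroblasts (17992 to 26550 CPM), neural cells (17996 to 27705 CPM) and immune cells (19129 to 25645 CPM) mostly lay lower. The lowest smooth muscle groups fell within the neural range, while the fibroblast and columnar ranges did not overlap. Squamous groups, at 16432 to 33328 CPM, overlapped both sides. These are levels of 1 pooled sample each, and the median depth of the groups moved with them (Pearson r = 0.60 over the 54 groups, which share 1 library), a relation whose part in the levels was not tested.

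**Figure D1:**
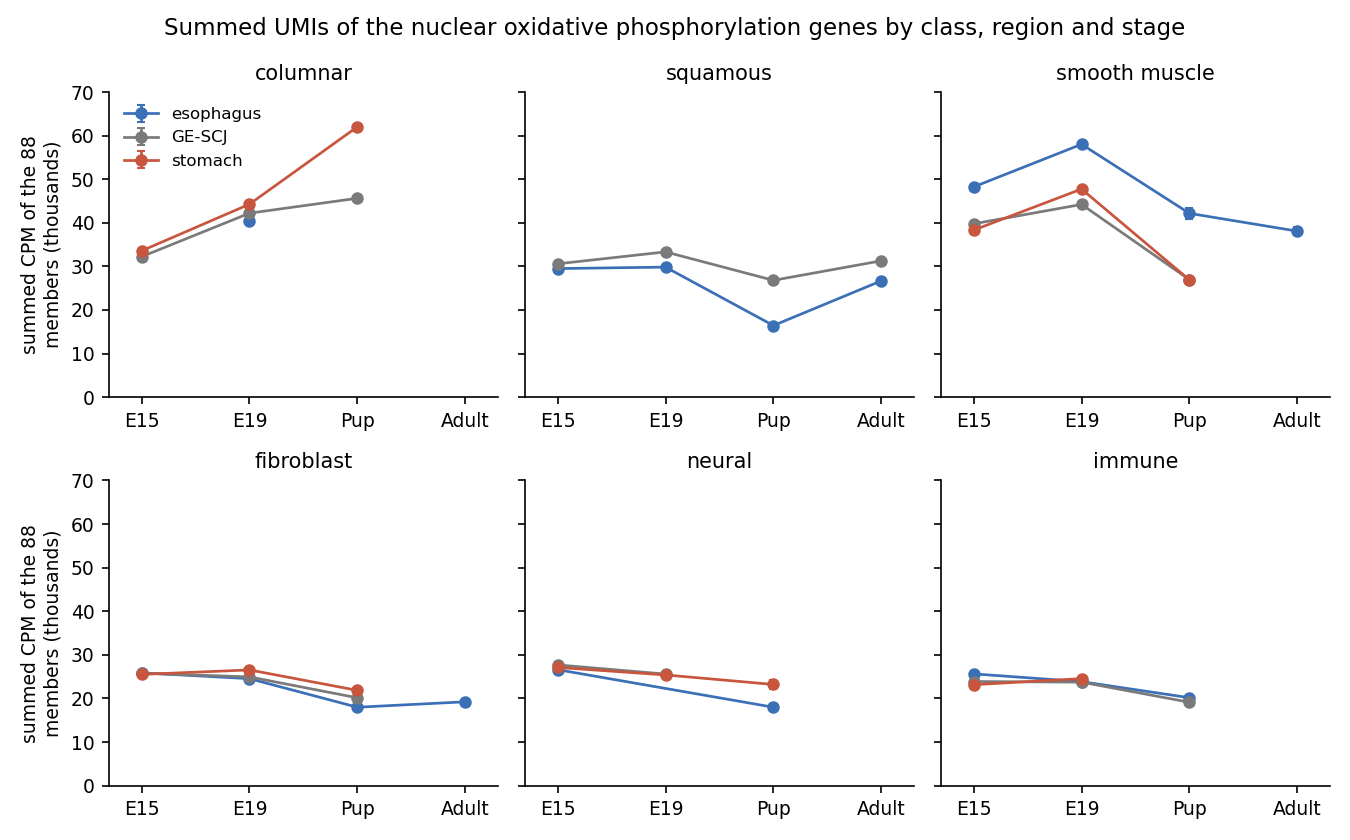
Summed CPM of the 88 members (in units of 1000, linear axis from 0) for 6 classes by stage; each point is 1 pooled sample of at least 20 cells, colours give the region and error bars the 95% counting interval, mostly smaller than the point. Columnar levels of the stomach stood at 33556, 44268 and 62017 CPM from the earliest stage to the pup, while fibroblast groups stayed between 17992 and 26550 CPM.

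Columnar epithelium of the stomach had 33556 CPM of the members at E15, and 44268 and then 62017 CPM at E19 and in pups. Pup over E15 the log2 ratio was 0.89 (0.88 to 0.89), and 28 of the 84 members that entered were at least 2-fold higher, against a background of 8.97% of all genes. With cells kept only at 1000 UMIs or more and up to 10% mitochondrial UMIs, 15 of 84 were (background 8.19%) and 1 was lower (background 17.8%). One member, Cox6b2, was at least 2-fold lower (background 19%). The members' median log2 ratio was 0.81 where that of all genes was -0.36. At the GE-SCJ the columnar cells stood at 32212, 42202 and 45622 CPM, a log2 ratio of 0.50 (0.49 to 0.52) from pup over E15, with 3 of 82 members 2-fold higher (background 8.41%) and 1 lower (background 19.3%), and a members' median of 0.43 beside -0.35 for all genes. The cell in the middle of the distribution did not share in this: the median over single cells was 34470 CPM in the pup stomach and 33350 CPM at E15, and 31129 and 31156 CPM at the GE-SCJ.

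The gap between the sums and the cell medians lay in cells rich in the gastric proton pump. Columnar cells with Atp4a and Atp4b together at 2000 CPM or more are called Atp4-high cells here, a range of a score and not a cell type, with the limit chosen after the values had been seen. In the pup stomach 108 of 351 columnar cells were Atp4-high (30.8%, exact binomial interval 26 to 35.9%), and 7 cells lay between 1000 and 4000 CPM of the pair. At the GE-SCJ 44 of 291 were (15.1%, 11.2 to 19.8%), with 4 cells in that band. At E19 there were 28 of 366 in the stomach and 15 of 274 at the GE-SCJ, and at E15 1 of 202 over all regions. Immune cells of the pups, which should lack the pump, had 120 CPM of Atp4a. The Atp4-high cells of the pup stomach had a median of 360 CPM of Kcne2, the potassium channel subunit of parietal cells, against 0 in the other columnar cells. Cblif, also placed in the list of parietal cell markers used here, was lower in the Atp4-high cells, unlike the pump genes and Kcne2. The chief and neck cell genes given below were lower too. The summed level of Cblif was 137 against 586 CPM in the stomach and 172 against 449 CPM at the GE-SCJ. Chief and neck cell genes were lower in the Atp4-high cells of the pup stomach. Medians were 660 against 27715 CPM for Pgc, which encodes pepsinogen C, and 27.4 against 318 CPM for Muc6, a gland mucin. The immune gene Ptprc had a median of 0 in both, and Col3a1 of fibroblasts 46.9 against 63.8 CPM.

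In the pup stomach, the members summed to 123830 CPM in Atp4-high cells and 30162 CPM in the other columnar cells, a log2 ratio of 2.04 (2.03 to 2.04). Cell by cell the Atp4-high cells ran from 20758 through a median of 134629 to 219376 CPM, and the others from 8800 through 29147 to 55544 CPM. Of the 108 Atp4-high cells 103 were above the highest of the 243 others, and in the cell at the top the 88 genes made 21.9% of all UMIs. Atp4-high cells held 67.9% of the member UMIs of that group with 34.0% of its UMIs. At the GE-SCJ the sums were 104936 and 30622 CPM, a log2 ratio of 1.78 (1.77 to 1.79). Of the 108 cells of the whole series above 100000 CPM, 104 were pup columnar Atp4-high cells and 75 of these came from the stomach. The Atp4-high cells were also deeper, with a median of 37159 UMIs against 25302 in the stomach, and no doublet caller was run; the part of either in the level was not tested.

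Within the Atp4-high cells the level went with the pump. The 77 stomach cells with at least 16000 CPM of the pair had a member median of 152197 CPM, and the 31 cells between 2000 and 16000 CPM a median of 76169 CPM. Spearman's rho between the pump and the members was 0.57 over the 108 stomach cells and 0.60 over the 44 GE-SCJ cells, and -0.01 over the 243 other stomach cells. Those others were cut below 2000 CPM of the pump, and most had low values. Their rho therefore cannot say whether the relation is confined to Atp4-high cells. The cells of a region share 1 pool of mice, and Atp4a, Atp4b and the members share the same library total.

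**Figure D2:**
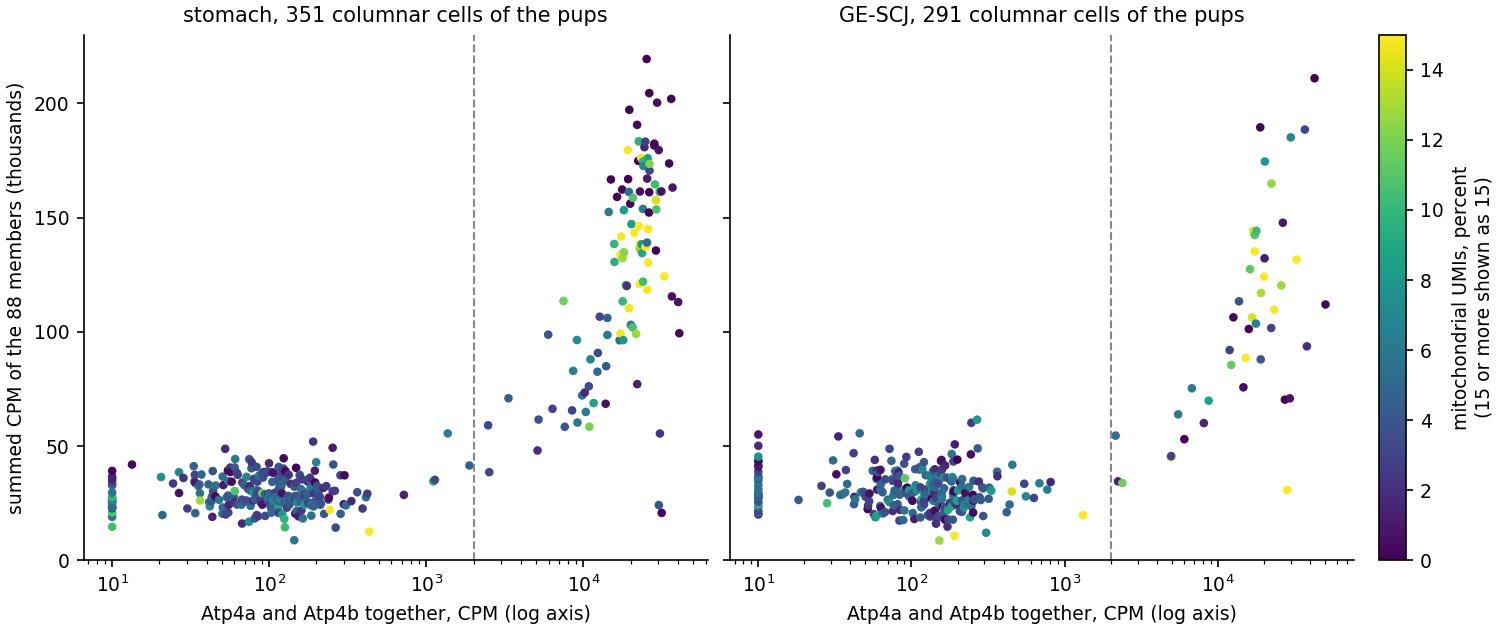
Each point is 1 columnar cell of the pups, 351 from stomach and 291 from GE-SCJ, with Atp4a and Atp4b together on a log axis (cells under 10 CPM drawn at 10), the summed CPM of the 88 members in units of 1000, and colour for the percent of UMIs from mitochondrial genes; the dashed line marks 2000 CPM. The members climb only to the right of the line, to 219376 CPM, and both dark points (low percent) and yellow points (high percent) lie among the high cells there.

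High nuclear levels were found at both ends of the mitochondrial percent in these cells. Atp4-high stomach cells had 6.72% of their UMIs from the 13 mitochondrial genes against 3.95% in the other columnar cells, but their single values were spread widely. In 27 of the 108 cells mitochondrial genes made less than 1% of UMIs, down to 0.03%, and these 27 cells had a member median of 163128 CPM. The 31 cells above 10% had a member median of 136268 CPM, and the 19 cells from 3 to 6% a median of 82544 CPM. It was 75268 CPM in the 10 cells from 1 to 3% and 130591 CPM in the 21 cells from 6 to 10%. The pump differed along the percent too, with medians of 26278, 20472, 12291, 17944.5 and 22802 CPM from the lowest percent to the highest. Its part was not tested. At the GE-SCJ the 10 cells under 1% had a median of 103784 CPM and the 17 cells over 10% had 120291 CPM. Cells from 1 to 3%, 3 to 6% and 6 to 10% there had medians of 92826, 87926 and 89433 CPM. Among the other columnar cells 22 of 243 in the stomach and 28 of 247 at the GE-SCJ were under 1%. Spearman's rho between members and mitochondrial percent was -0.15 over the 108 stomach cells and 0.07 over the 44 GE-SCJ cells. Over the 54 groups, in contrast, summed members and mitochondrial percent had a Pearson r of 0.66 and a rho of 0.47, and within the 20 groups of at least 100 cells rho ran from -0.47 to 0.08 and was below 0 in 19.

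Every complex was higher in the Atp4-high cells, and the sizes differed by complex. Against the other pup stomach columnar cells 78 of 82 members were 2-fold or more higher (background 11.8%) and 0 lower (background 15.2%), with a median of 1.98 beside -0.11 for all genes. All 37 complex I, 8 complex III and 12 complex IV subunits that entered were past 2-fold, as were 16 of 17 in complex V and 5 of 7 assembly factors. Median log2 ratios were 2.35 for complex IV, 2.02 for complex V, 1.96 for complex III, 1.95 for complex I and 1.44 for its assembly factors. Among the members with the highest ratios were Cox7a1 (6.17), the complex III subunit Uqcrq (2.96) and the complex I accessory subunit Ndufc1 (2.67). Uqcrq stood at 2926 against 377 CPM and Ndufc1 at 1575 against 247 CPM. Those under 2-fold were Cox7a2l (0.94), the assembly factor Ndufaf7 (0.83), the ATP synthase gene Atp5g2 (0.51) and the assembly factor Ndufaf8 (0.27). At the GE-SCJ 76 of 81 members were 2-fold higher (background 9.11%), the same 76 members past 2-fold in both regions, and over the 81 members that entered in both the ratios of the regions had a Pearson r of 0.98 (0.97 without Cox7a1). The regions share no cells but come from the same pups, and genes are not independent replicates.

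Pup over E15 the ratios were smaller, and complex V was the lowest of the complexes. In the stomach the summed log2 ratio was 1.20 for complex III, 1.07 for complex IV, 0.79 for complex I, 0.69 for complex V and -0.09 for the assembly factors. Of all genes 8.97% were 2-fold higher. Among the members these were 9 of 13 of complex IV, 6 of 8 of complex III, 10 of 37 of complex I, 3 of 17 of complex V and 0 of 8 assembly factors. The highest ratios were those of Cox7a1 (4.80, 4.22 to 5.45), Uqcrq (1.93, 1.84 to 2.01) and the complex I accessory subunits Ndufa1 (361 against 128 CPM) and Ndufb9 (1.41). Uqcrq stood at 327, 569 and 1244 CPM over the stages. The lowest were Cox6b2 (-1.85), the complex I assembly factors Ndufaf2 (-0.72) and Ndufaf6 (-0.49), and Atp5g2 (-0.26). At the GE-SCJ the highest were Cox7a1 (2.76), Uqcrq (1.34), Ndufb9 (1.08) and the complex III subunit Uqcrh (0.93), and the lowest Ndufaf2 (-1.12), Ndufaf1 (-0.37), Atp5g2 (-0.27) and Ndufaf6 (-0.24).

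Without the Atp4-high cells the ratio turned. The sum was then 30162 CPM in the pup stomach against 33346 CPM at E15, a log2 ratio of -0.14 (-0.15 to -0.13), and -0.07 (-0.09 to -0.06) at the GE-SCJ. Of 79 GE-SCJ members 0 were 2-fold higher (background 7.91%) and 1 lower (background 18.9%). Of 82 stomach members 0 were 2-fold higher (background 6.79%) and 3 lower (background 17.8%). The members' median was -0.21 beside -0.39 for all genes in the stomach, and -0.10 beside -0.37 at the GE-SCJ. E19 over E15 the stomach columnar cells had a log2 ratio of 0.40 (0.39 to 0.41), with 2 of 86 members 2-fold higher (background 3.2%) and 0 lower (background 2.6%), and cell medians of 43022 against 33350 CPM. The 338 other columnar cells of the E19 stomach had a cell median of 42739 CPM and the 28 Atp4-high cells 46112 CPM, the latter at a median depth of 5421 UMIs.

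**Figure D3:**
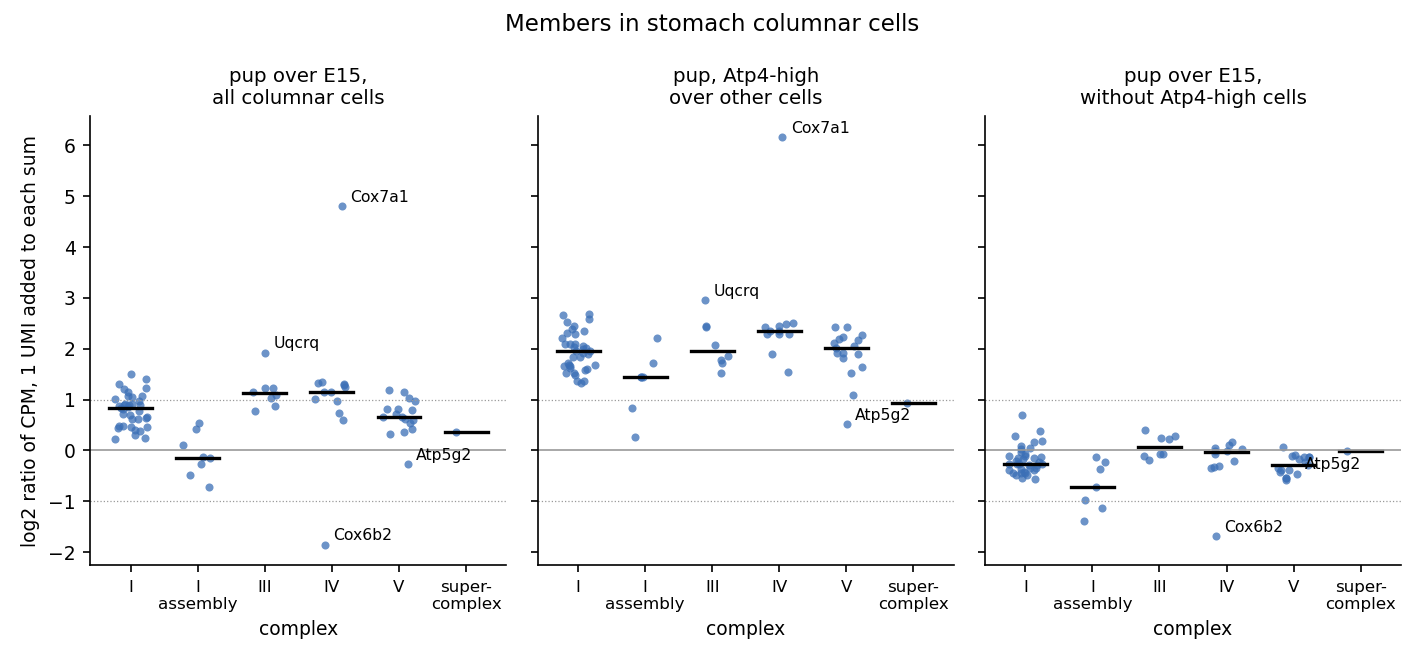
Log2 ratios of CPM for the members that entered (84, 82 and 82 genes) in stomach columnar cells, by complex, with 1 point per gene, the median as a bar and dotted lines at 2-fold. The points of complexes I, III, IV and V lie above 0 in the first panel apart from Cox6b2 and Atp5g2, all 82 lie above 0 in the second, and most lie below 0 in the third.

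Cox7a1 was the member that set these cells apart most. It encodes the form of complex IV subunit 7a known from heart and skeletal muscle, and Cox7a2 the form found in most tissues. Over the 54 groups Cox7a1 ran from 0 through a median of 6.18 to 173 CPM. In columnar cells it was at 5.96, 12.7 and 173 CPM in the stomach over the stages E15, E19 and pup, and at 9.06, 13.0 and 66.4 CPM at the GE-SCJ. In the pup stomach the Atp4-high cells had 1928 of the 1979 UMIs, 496 CPM against 6.77 CPM in the others, and at the GE-SCJ 312 against 4.28 CPM. The low level outside was near that of pup immune cells, 3.29 CPM. Of the UMIs of Cox7a1 and Cox7a2 together the first made 12.3% in Atp4-high cells and 1.05% in the other columnar cells of the stomach, and Cox7a2 was higher in the same cells too (log2 ratio 2.48). The 74.4 CPM of the 20 columnar cells of the E19 esophagus rested on 45 UMIs of 1 Atp4-high cell. Its promoter is shown because no other member that entered had a higher ratio in either region. RefSeq on GRCm38.p6 places the 250 bases before the Cox7a1 start at chr7:30183921-30184170 on the plus strand, with no match to the motifs named below.
Cox7a1: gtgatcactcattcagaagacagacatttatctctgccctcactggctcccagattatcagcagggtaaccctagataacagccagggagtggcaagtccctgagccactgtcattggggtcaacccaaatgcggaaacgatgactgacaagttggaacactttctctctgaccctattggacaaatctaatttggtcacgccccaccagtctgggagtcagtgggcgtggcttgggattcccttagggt

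The 3 genes of ATP synthase subunit c took different courses. Atp5g1, Atp5g2 and Atp5g3 encode the same mature protein, the ring that turns in the membrane, behind different import signals, so their UMIs count molecules that add up to 1 subunit. In stomach columnar cells Atp5g1 had 651, 1232 and 1450 CPM over the same stages, Atp5g3 had 554, 740 and 1126 CPM, and Atp5g2 had 889, 890 and 740 CPM. Atp5g2 made 42.4% (41.4 to 43.5%) of the UMIs of the 3 genes at E15 and 22.3% (21.9 to 22.8%) in the pup. In the Atp4-high cells its share was 14.5%, with 49.1% for Atp5g1 and 36.4% for Atp5g3, and in the other columnar cells of the pup stomach the shares were 37.2%, 33.5% and 29.3%. At the GE-SCJ the Atp5g2 share was 16.0% in Atp4-high and 36.8% in other cells. Over all 54 groups Atp5g2 made between 22.3 and 55.8%, the lowest in stomach columnar cells of the pup and the highest in stomach immune cells at E15.

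**Figure D4:**
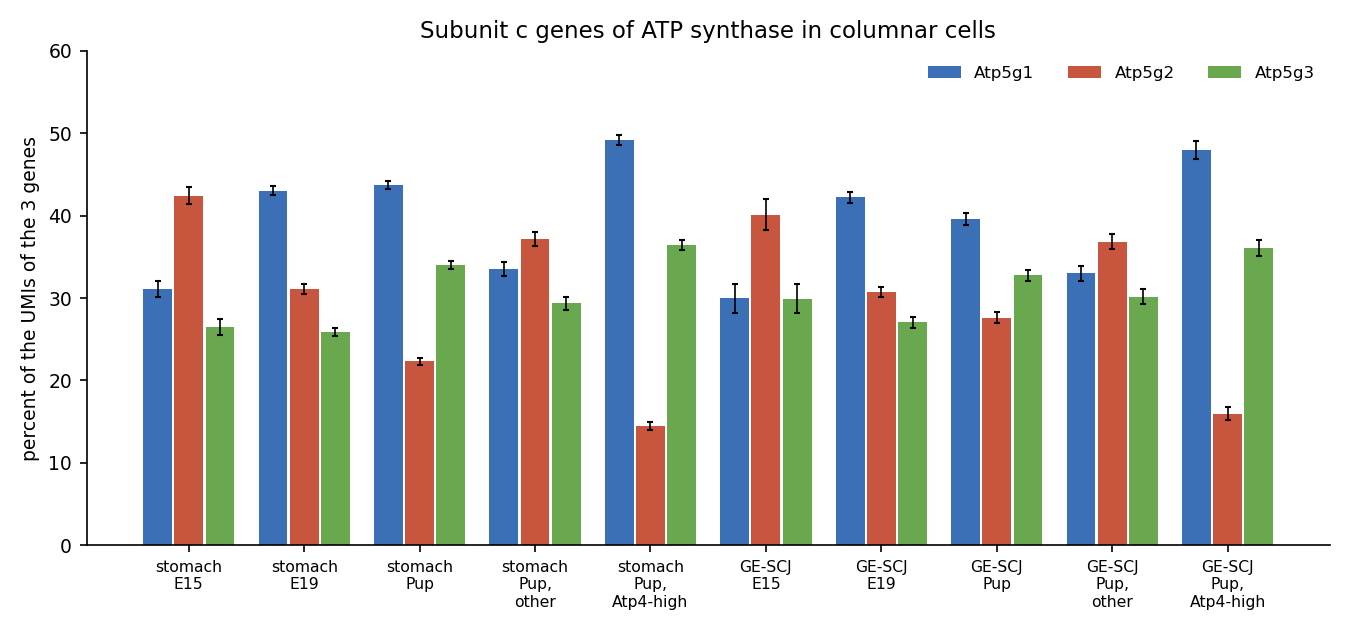
Shares of Atp5g1, Atp5g2 and Atp5g3 in the UMIs of the 3 genes, as bars from 0 with 95% counting intervals, in columnar cells by region and stage and, for the pups, in Atp4-high and other cells. The Atp5g2 bar stands at 42.4% in the E15 stomach and at 14.5% in Atp4-high cells of the pup stomach.

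The windows before their starts are shown because these genes make 1 protein and their ratios differed. They lie at chr11:96075632-96075881 for Atp5g1, chr15:102671048-102671297 for Atp5g2 and chr2:73911327-73911576 for Atp5g3, all on the minus strand of GRCm38.p6 in RefSeq and written 5′ to 3′ in the direction of the gene. Capitals mark the 2 motif matches found. Atp5g2 held the NRF1 letters from 42 to 33 bases before the start, and Atp5g3 held the letters of an estrogen-related receptor site on the other strand, from 52 to 46 bases before it.
Atp5g1: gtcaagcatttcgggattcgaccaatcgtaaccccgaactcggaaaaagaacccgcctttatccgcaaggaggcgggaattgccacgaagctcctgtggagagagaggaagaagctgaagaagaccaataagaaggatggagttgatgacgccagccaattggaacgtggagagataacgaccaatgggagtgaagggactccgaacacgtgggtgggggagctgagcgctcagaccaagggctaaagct
Atp5g2: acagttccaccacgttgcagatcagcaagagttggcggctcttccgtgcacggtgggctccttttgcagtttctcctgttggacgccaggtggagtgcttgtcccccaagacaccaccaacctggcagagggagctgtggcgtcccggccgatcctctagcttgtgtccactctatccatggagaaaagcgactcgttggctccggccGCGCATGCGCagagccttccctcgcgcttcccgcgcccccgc
Atp5g3: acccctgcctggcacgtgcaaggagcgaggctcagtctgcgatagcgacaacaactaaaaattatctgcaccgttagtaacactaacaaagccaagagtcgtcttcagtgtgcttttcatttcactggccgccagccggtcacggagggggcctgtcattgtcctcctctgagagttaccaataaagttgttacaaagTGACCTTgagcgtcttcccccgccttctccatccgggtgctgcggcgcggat

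RefSeq gave a window of 250 bases before the start for 71 of the 88 members, 76 windows in all as some genes have several starts, among 32851 windows of 27025 genes. Motifs were searched as plain letters on both strands, each on its own, so that a window can hold several. The NRF1 letters, GCGCA, any base and GCGC, read by the nuclear respiratory factor NRF1, were in 13 member windows (17.1%) and in 3.74% of all windows. CCGGAAG, read by GABPA and other ETS factors, was in 13 member windows (17.1%) and 6.91% of all. AANATGGCG of YY1 was in 3 member windows (3.95%) and 1.12% of all, and AAGGTCA of the estrogen-related receptors in 5 (6.58%) and 4.08% of all. The members with the NRF1 letters were Atp5c1, Atp5g2, Atp5h, Atp5k, Cox6a1, Ndufa11, Ndufa5, Ndufa8, Ndufaf4, Ndufb4, Ndufs5 and Ndufs6. Those with AAGGTCA were Atp5g3, Atp5l, Ndufb2, Ndufb4 and Ndufs5. A match describes letters and not a bound site.

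Of the genes known to regulate respiration, the estrogen-related receptor Esrrg had 316 CPM in Atp4-high and 21.8 CPM in the other columnar cells of the pup stomach (log2 ratio 3.85), and Yy1 62.6 against 97.0 CPM (-0.63). The list of 16 had a median of -0.26 over the 12 genes that entered, beside -0.11 for all genes. Of the 12, 4 were 2-fold higher (background 11.8%) and 0 lower (background 15.2%). Pup over E15 the coactivator Ppargc1a was at 51.5 against 10.1 CPM (2.32) and Nrf1 at 14.0 against 33.4 CPM (-1.26).

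Other energy genes were measured in the same cells, where 11.8% of all genes were 2-fold higher and 15.2% lower in the Atp4-high ones. In Atp4-high over other pup stomach cells both Cycs, cytochrome c (1481 against 143 CPM, log2 ratio 3.37), and Cyc1 of complex III (2.45) were past 2-fold, as were all 4 complex II genes, 13 of 16 citrate cycle genes and 8 of 12 genes of fatty acid oxidation. Glycolysis genes had a median of 1.34, with 10 of 14 2-fold higher, among them Pgam1 (2.88), and Hk2 lower (-1.06). Among the nucleotide carriers and creatine kinases Ckb, the brain form of creatine kinase, stood at 384 against 13.4 CPM (4.83). Of 78 mitochondrial ribosome genes 24 were 2-fold higher and 0 lower, with a median of 0.77, while cytosolic ribosome genes had a median of -0.18 and 0 of 90 higher. Mitochondrially encoded subunits had a median of 0.78, with 3 of 13 higher. Pup over E15 in the stomach glycolysis genes had a median of -0.70, with 6 of 15 2-fold lower and 0 higher (19% and 8.97% of all genes), among them Ldha (-1.59, 273 against 824 CPM). Mitochondrially encoded subunits had a median of 1.11 with 7 of 13 higher, above the 0.81 of the nuclear members, and without the Atp4-high cells still 0.72, where nuclear members were at -0.21. Glycolysis genes without the Atp4-high cells had a median of -1.65, beside -0.39 for all genes. Of 14 that entered, 10 were 2-fold lower (background 17.8%) and 0 higher (background 6.79%).

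Levels of alternative forms of complex IV subunits differed among the other classes too. Ndufa4l2, a relative of Ndufa4 known as a target of the hypoxia response, was at 189 to 343 CPM in squamous cells of both regions at E15, E19 and in adults, and at 30.8 and 31.4 CPM in those of the pups. It reached 280 CPM in the 30 cells of adult esophageal smooth muscle, and its median over the 54 groups was 19.4 CPM. In the E19 stomach it was higher in fibroblasts than in columnar or smooth muscle cells, as given below. Cox6b2, a form of subunit 6b known from testis, was at 105 to 162 CPM in fibroblasts at E15 and E19. There it made 17.8 to 26.4% of its pair with Cox6b1. It was at 5.0 to 27.2 CPM in columnar and 15.8 to 45.4 CPM in immune groups. Squamous and smooth muscle cells of the E15 esophagus lay between, at 63.1 and 60.9 CPM. Cox4i2, an oxygen-responsive form of subunit 4, was at 146 CPM in adult esophageal smooth muscle, 9.06% of its pair with Cox4i1, at 36.4 to 47.0 CPM in GE-SCJ and stomach fibroblasts before birth and at 2.29 to 3.15 CPM in those of the esophagus. Cox8b stayed at or under 14.8 CPM, its level in neural cells of the E19 stomach.

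**Figure D5:**
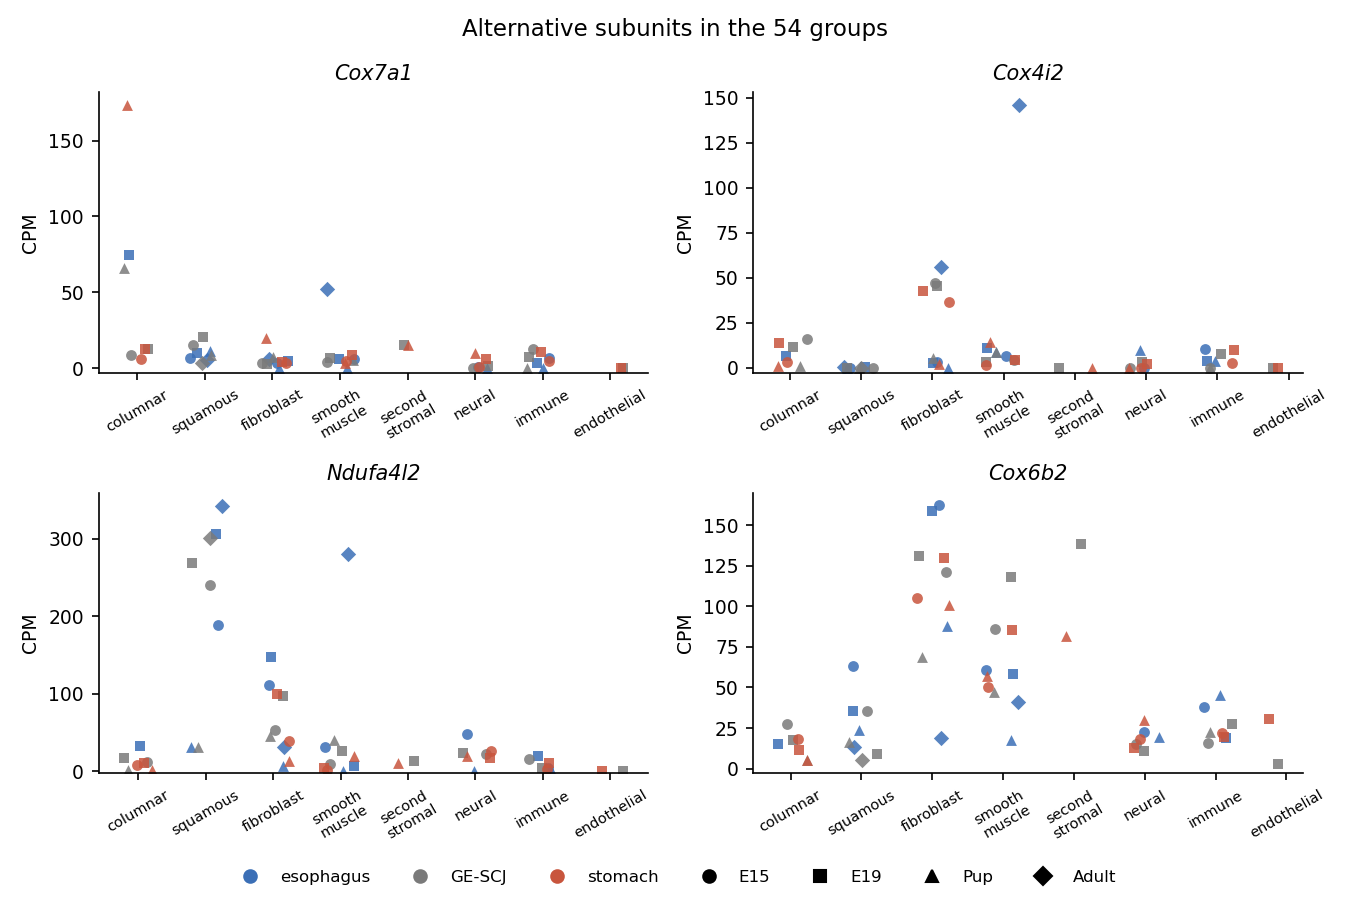
CPM of 4 alternative complex IV subunits in the 54 groups (linear axes, 1 point per pooled sample, colour for region and shape for stage). Cox7a1 stands out in pup columnar cells at 173 CPM and Cox6b2 in fibroblasts. Ndufa4l2 stands out in squamous cells other than those of the pups and in adult esophageal smooth muscle.

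In the E19 stomach columnar cells had 44268 CPM of the members and fibroblasts 26550 CPM, a log2 ratio of 0.74 (0.73 to 0.75). Of 86 members 24 were 2-fold higher in columnar cells (background 13.0%) and 3 lower (background 22.8%), with a median of 0.64 beside -0.24 for all genes. Complex III differed most, with a summed log2 ratio of 1.12 and 7 of 8 members past 2-fold, and complex I least, with 0.52 and 6 of 37. The highest ratios were those of Cox5a, a complex IV subunit (1.81, 908 against 259 CPM), Atp5g1 (1.66), Uqcrfs1, the Rieske iron-sulfur protein of complex III (1.63), and Cox7a1 (1.59). The lowest were Cox6b2 (-3.50), Ndufa4l2 (-3.18), Cox4i2 (-1.64) and Ndufaf2 (-0.69). Columnar cells were deeper, with a median of 24241 against 9025 UMIs, whose part was not tested. Smooth muscle exceeded the fibroblasts there too, at a log2 ratio of 0.85 (0.84 to 0.86), with 16 of 84 members 2-fold higher (background 4.96%) and 2 lower (background 13.5%). Of these Uqcr11 (1.62) and Uqcrq (1.48) of complex III had the highest ratios, chosen after their values were seen, and Ndufa4l2 (-4.41) and Cox4i2 (-3.19) were the lower ones. The 4 genes listed for pericytes summed to 387 CPM in these fibroblasts, 189 CPM in smooth muscle and 7.33 CPM in columnar cells. Their part in the levels of Ndufa4l2 and Cox4i2 was not tested.

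Smooth muscle had its highest levels at E19 and its lowest in pups or adults. In the stomach it stood at 38313, 47744 and 26883 CPM over E15, E19 and pup, at the GE-SCJ at 39759, 44215 and 26949 CPM, and in the esophagus at 48226, 58009 and 42161 CPM and at 38077 CPM in adults. Pup over E15 in the stomach the log2 ratio was -0.51 (-0.54 to -0.49), with 6 of 78 members 2-fold lower (background 12.5%) and 0 higher (background 10.2%), and a median of -0.49 beside -0.13 for all genes. The lowest were Atp5g1 (-1.30, 245 against 609 CPM), Atp5k, which encodes ATP synthase subunit e (-1.23), Ndufab1, the mitochondrial acyl carrier protein (-1.09), and Ndufaf2 (-1.03). Among the highest were Cox6b2 (0.22), the complex I core subunit Ndufs3 (0.19) and the accessory subunit Ndufa6 (0.18). In those pup cells Rgs5, a pericyte gene, was at 1759 against 29.0 CPM, the 4 pericyte genes summed to 2125 against 148 CPM, fibroblast markers to 7275 against 2757 CPM, and median depth was 4586 against 13329 UMIs; their part in the lower level was not tested. Without cells that had an Rgs5 UMI the ratio was -0.63 with 16 of 75 members 2-fold lower (background 17.8%) and 1 higher (background 10.4%). In cells of 3000 to 8000 UMIs, 95 in the pup and 11 at E15, it was -0.61 with 11 of 58 lower (background 8.58%) and 1 higher (background 17.4%). At E19 the esophagus exceeded the stomach by a log2 ratio of 0.28 (0.26 to 0.30), most in Ndufa4 (0.99, 3551 against 1789 CPM). Of 78 members 0 were past 2-fold higher (background 3.12%) or lower (background 4.65%). Of 6 skeletal muscle genes 2 entered, Tnnt3 at 329 against 32.6 CPM and Ckm at 305 against 279 CPM. All 6 summed to 649 against 348 CPM, and their part was not tested. Pup over E15 the ratio was -0.56 at the GE-SCJ, with 0 of 78 members higher (background 10.7%) and 9 lower (background 11.7%), and -0.19 in the esophagus, with 0 of 73 members higher (background 6.84%) and 0 lower (background 11.7%). Pericyte genes summed to 985 against 139 CPM in those GE-SCJ cells and to 323 against 223 CPM in the esophagus, where skeletal muscle genes summed to 689 against 105 CPM, and median depth was 4418 against 12171 and 5880 against 11533 UMIs; their part was not tested.

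Fibroblasts of the stomach stood at 25520, 26550 and 21858 CPM, a log2 ratio of -0.22 (-0.25 to -0.19) from pup over E15, with 0 of 80 members 2-fold higher (background 6.88%) and 3 lower (background 10.5%), and a median of -0.18 beside -0.14 for all genes. The lowest were Cox4i2 (-3.03, with 1 UMI in the pup against 139), Ndufa4l2 (-1.34), Ndufaf2 (-1.02) and Ndufc1 (-0.98). The 3 highest, Ndufv3 (0.44), Ndufa6 (0.42) and Uqcrfs1 (0.38), belong to complexes I and III. The ratio was -0.36 at the GE-SCJ, with 0 of 80 members 2-fold higher (background 7.89%) and 3 lower (background 12.8%), and -0.52 in the esophagus, with 0 of 79 higher (background 8.84%) and 7 lower (background 12%). Ndufaf2 was among the 4 lowest members in each region (-1.02, -1.48 and -1.45), while Uqcrfs1 was among the 4 highest in each (0.38, 0.37 and 0.26), and the pup cells of all regions were shallower than those at E15.

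Squamous cells of the esophagus stood at 29499, 29832, 16432 and 26686 CPM from E15 through E19 and pup to adult. Adult over E15 the log2 ratio was -0.14 (-0.16 to -0.13), with 0 of 79 members 2-fold higher (background 11.3%) and 1 lower (background 18.0%), and a median of -0.18 beside -0.38 for all genes. The highest were Ndufa4l2 (0.85, 343 against 189 CPM), Ndufv1, which binds NADH in complex I (0.72), Ndufa4 (0.37) and Uqcrq (0.37), and the lowest Cox6b2 (-2.26), Ndufc2 (-0.80), Ndufab1 (-0.59) and Atp5a1, the alpha subunit of ATP synthase (-0.58). At the GE-SCJ the ratio was 0.03 (0.01 to 0.05), with 0 of 78 members higher (background 11.8%) or lower (background 17.8%). Pup over E15 it was -0.19 there, with 0 of 74 higher (background 4.65%) and 1 lower (background 11.6%), Ndufa4l2 (-2.88). In the pup esophagus 30 of 74 members were 2-fold lower than at E15 (background 32.5%) and 0 higher (background 11.1%). The pair of squamous labels stood apart there, at 8361 CPM in the 29 cells of the second and 22110 CPM in the 56 cells of the first, with 38 of 49 members lower in the second (background 46.8%) and 0 higher (background 26.7%). Other genes differed between these labels too. Of 4 genes listed as mesothelial 2 entered, Upk1b at 2250 against 98.1 CPM and Msln at 1001 against 14.0 CPM in the second against the first. All 4 summed to 3256 against 112 CPM, nearly all of it Upk1b and Msln in the second label, so the list as a whole did not mark mesothelium. Of 5 squamous markers 3 were 2-fold lower, Col17a1 at 0 against 529 CPM, and Krt13 was higher, at 6915 against 1456 CPM. Their part was not tested.

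Most members varied with the sum of the others over the groups. The Pearson r of a member's CPM with the sum of the others over the 54 groups had a median of 0.84 in the 86 members with enough UMIs, and 74 were above 0.5. Cox7a2l, the supercomplex factor, had an r of 0.09 and the narrowest spread, from 195 through 268 to 405 CPM. Cox6b2 (-0.17) and Ndufa4l2 (-0.08) were the members below 0. The groups share 1 library and CPM sum to a fixed total, so these correlations are descriptions. No share of all genes above 0.5 is given here, so the count is not read as particular to the members.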

How the data were processed

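Tissue cells of all tags were sequenced as 1 gene expression library with a matching library of multiplexing tags (10x Genomics 3′ chemistry). The authors demultiplexed and aligned the reads with Cell Ranger 6.1.1 to the mm10 build and deposited whole-number UMI counts per gene and cell, with a table of cells that gives tag, class label and the mitochondrial percent. The deposited counts were used without normalisation, and the deposited mitochondrial percent of each cell was computed by the authors. Recomputed UMI totals and mitochondrial percents equalled the deposited ones in all 7808 cells, the percents within 1e-09 percentage points. Tags held 2.3 to 20.1 UMIs in units of 1000000, and cells a median of 10424.5. The 7808 cells were those left after the authors' own cuts on genes, UMIs and mitochondrial percent and their removal of subgroups with few reads. The upper end of the mitochondrial percent was therefore already cut. No further cell was removed here, and no barcode occurred more than once. Columns with cluster numbers, cell cycle scores and the authors' normalised totals were not used.

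UMIs were summed per class, region and stage and divided by the UMIs of the group with pandas 2.3.3 and numpy 2.4.6 in Python 3.11.15, and intervals came from scipy 1.17.1. They were exact Poisson for levels and Clopper-Pearson for shares and ratios. A floor of 3 UMIs of the group was set apart from these intervals, whose upper limit for a level of 0 is somewhat higher. Reads of 3′ tags count molecules, so levels of genes need no division by length. Many members have processed pseudogenes, and unique mapping can lower their counts by an amount not known here. Ratios, intervals and the motif search were tested on simulated data. Of the 21 comparisons 6 were the main ones. Named genes were the 10 members with the most UMIs, the 4 highest and 4 lowest ratios of each main comparison, the isoform pairs, and the highest and lowest gene of each other list; further names, as in the comparison of Atp4-high cells, were chosen after their values were seen. The single-gene values of 1 member are not reported here. The members and lists were chosen with earlier results of these data known. Promoter windows came from RefSeq on GRCm38.p6, 17 members had none in the table used, and members on that build were matched by symbol. Alternatives changed the averaging, the cell filter, the library size and the cells or members left in.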

Additional observations from a re-analysis of the deposited data

Results flagged for a closer look

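Classes of the same region moved to different sides between E15 and the pup, and with 1 pooled sample per group none of these differences was tested. In the stomach the summed log2 ratio of pup over E15 was -0.22 in fibroblasts and -0.51 in smooth muscle, where columnar cells had 0.89. At the GE-SCJ it was -0.19 in squamous cells, -0.36 in fibroblasts and -0.56 in smooth muscle, where columnar cells had 0.50. Without the Atp4-high cells the columnar ratios were -0.14 and -0.07, with the same sign as in the other classes. Their members' medians still lay above those of all genes, -0.21 beside -0.39 and -0.10 beside -0.37. So did that of GE-SCJ squamous cells, -0.16 beside -0.33. In fibroblasts and smooth muscle of both regions the members' medians lay below those of all genes.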

How the results depend on the processing

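Of 66 alternative values 30 stayed within the counting interval of the reported one (for counts of genes, within 1.5 times), 34 moved beyond it and 2 turned direction. The turns came from leaving out the Atp4-high cells, which gave pup over E15 log2 ratios of -0.14 in stomach and -0.07 in GE-SCJ columnar cells. Of 82 stomach members 0 were then 2-fold higher (background 6.79%), in place of 28 of 84 (background 8.97%). Without those cells columnar over fibroblast at E19 was 0.71. Leaving out cells by Atp4, depth, Rgs5 or Tnnt3, and other Atp4 limits, were chosen after seeing the data. Averaging CPM over single cells gave 0.86 in stomach and 0.36 in GE-SCJ columnar cells, -0.23 in squamous cells, -0.58 in smooth muscle and 0.72 for columnar over fibroblast. Keeping cells with 1000 UMIs or more and mitochondrial shares up to 10% gave 0.71 and 0.33 in columnar cells and -0.12 in squamous cells. With this filter, which removes the Atp4-high cells above 10%, 15 of 84 stomach members were 2-fold higher (background 8.19%). With library sizes that left out mitochondrial, ribosomal and hemoglobin genes the values were 0.79, 0.48, -0.18 in squamous cells, -0.27 in fibroblasts and 0.83 for columnar over fibroblast. Without the 1% of cells with the most member UMIs they were 0.84, 0.43, -0.28 in fibroblasts and 0.72. With structural subunits alone they were 0.89 in stomach columnar cells and 0.75 for columnar over fibroblast. Cells of 3000 to 8000 UMIs gave -0.31 in fibroblasts and, with 95 and 11 cells, -0.61 in smooth muscle. There 11 of 58 members were 2-fold lower (background 8.58%). Smooth muscle cells without an Rgs5 UMI gave -0.63, with 16 of 75 members lower (background 17.8%). Where no reason follows from the construction, the cause was not tested. No paired analysis was possible because each region and stage was 1 pooled sample with no replicate number. Depth limits Cox6a2, Cox8b, Cox4i2 in pups and the assembly factors, and no leave-out of a mouse could be made.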

Other observations

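In the pup esophagus 4 of 10 columnar cells were Atp4-high, and all 4 were above 100000 CPM of the members. Region was taken from the deposited tag, and whether columnar cells tagged as esophagus came from another region was not tested. Of the 4 cells above 100000 CPM that were not from pups, 2 came from the GE-SCJ and 1 from the stomach at E19 and 1 from the adult GE-SCJ.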
